A study of Mus musculus with 8 samples.

Results

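The chromatin around 7 genes of the primary granules of neutrophil precursors was examined: Mpo, Elane, Prtn3, Ctsg, Ctsc, Ms4a3 and Lyz2. Every peak that lay within the gene body or within 20 kb of it on either side was taken, with Elane and Prtn3 treated as 1 locus because they are neighbours on chromosome 10. After overlapping peaks of the 8 libraries were merged, these 6 loci held 52 of the 123260 regions on chromosomes 1 to 19 and X. Of the 52, 13 were promoters of the 7 genes (summit within 3 kb of a transcription start site, TSS), 12 were promoters of neighbouring genes and 27 were distal.

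The peaks came from ATAC-seq, in which Tn5 transposase cuts accessible DNA, on bone marrow of female mice, 4.5 months old, of the strain 129Sv4/Jae x B6. LSK+ cells (lineage-negative, c-Kit-positive, Sca-1-positive), the gate that holds stem and multipotent cells, and LSK- cells (lineage-negative, c-Kit-positive, Sca-1-negative), which are myeloid progenitors of mixed fate, were sorted from wild type (WT) and XistΔ/Δ mice. Each of the 4 groups had 2 libraries, and about 10000 cells went into each. XistΔ/Δ mice carry both Xist 2lox alleles recombined by Vav-iCre, a Cre driven by the Vav1 promoter in all blood lineages, so the deletion precedes the cell types compared; whether WT mice carried the Cre was not given in the sources used here. Nothing in the labels says that replicates came from separate animals, so p-values measure the spread between these libraries, and the file names of same-numbered libraries share a code that may mark a batch.

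Primary, or azurophilic, granules are filled while a neutrophil precursor passes through the promyelocyte stage. Their main contents are the peroxidase Mpo and the serine proteases Elane, Prtn3 and Ctsg, which Ctsc (dipeptidyl peptidase I) activates by trimming their N-termini. Ms4a3 encodes a membrane protein of granulocyte-monocyte progenitors and is used as a mark of that stage, and Lyz2 encodes lysozyme, which stays on in mature neutrophils and macrophages. The transcription factors PU.1, C/EBP, RUNX and MYB are known regulators of these genes.

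The promoters (4) and further regions (3) on which the comparisons turn are shown, to let the letters be read beside the values. They were read from GRCm38.p6, the assembly of mm10, 5′ to 3′ on the strand of the gene. Capitals mark matches on either strand to GAGGAA (PU.1), TTNCNNAA (C/EBP), TGTGGT (RUNX) and TAACNG (MYB), and neighbouring or overlapping matches run together. Each promoter is the 200 bases before the most upstream annotated TSS, and none overlaps an exon. Each of the other 3 reaches 100 bases to either side of the summit of the strongest peak.

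Mpo promoter (chr11:87793381-87793580, plus strand): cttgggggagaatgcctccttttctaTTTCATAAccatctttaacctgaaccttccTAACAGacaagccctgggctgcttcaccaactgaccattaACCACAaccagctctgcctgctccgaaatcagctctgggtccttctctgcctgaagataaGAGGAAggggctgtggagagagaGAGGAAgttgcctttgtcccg
Elane promoter (chr10:79886047-79886246, plus strand): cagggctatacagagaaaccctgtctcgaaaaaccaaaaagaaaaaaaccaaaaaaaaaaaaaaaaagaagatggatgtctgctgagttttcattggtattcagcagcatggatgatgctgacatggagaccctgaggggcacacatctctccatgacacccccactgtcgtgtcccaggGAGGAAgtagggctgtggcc
Ctsg promoter (chr14:56102575-56102774, minus strand): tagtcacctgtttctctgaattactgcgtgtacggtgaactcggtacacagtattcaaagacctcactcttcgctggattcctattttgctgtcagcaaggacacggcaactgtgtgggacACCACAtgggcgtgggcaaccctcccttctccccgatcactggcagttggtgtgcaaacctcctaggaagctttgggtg
Ms4a3 promoter (chr19:11640852-11641051, minus strand): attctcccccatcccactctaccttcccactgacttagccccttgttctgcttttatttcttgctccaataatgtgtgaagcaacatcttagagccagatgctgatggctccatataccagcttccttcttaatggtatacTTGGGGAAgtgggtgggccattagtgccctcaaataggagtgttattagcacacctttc
Prtn3 upstream region (chr10:79877978-79878178, plus strand): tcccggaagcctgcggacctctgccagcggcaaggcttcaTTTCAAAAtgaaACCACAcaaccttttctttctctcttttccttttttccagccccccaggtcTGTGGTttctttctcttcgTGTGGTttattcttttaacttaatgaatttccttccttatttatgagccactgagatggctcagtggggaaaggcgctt
Ctsg downstream region (chr14:56093458-56093658, minus strand): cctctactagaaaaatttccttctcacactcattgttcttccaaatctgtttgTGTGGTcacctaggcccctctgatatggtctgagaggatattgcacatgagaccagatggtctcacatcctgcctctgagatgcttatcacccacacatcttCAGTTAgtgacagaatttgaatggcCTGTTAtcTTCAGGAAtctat
Ms4a3 downstream region (chr19:11613195-11613395, minus strand): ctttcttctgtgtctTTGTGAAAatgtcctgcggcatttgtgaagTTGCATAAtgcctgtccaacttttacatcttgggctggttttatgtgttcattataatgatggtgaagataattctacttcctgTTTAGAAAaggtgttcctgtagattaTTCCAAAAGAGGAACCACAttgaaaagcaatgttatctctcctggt

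The Mpo promoter held 5 matches and all 4 motifs, with both matches to GAGGAA near the TSS. The promoters of Elane (GAGGAA), Ctsg (TGTGGT) and Ms4a3 (TTNCNNAA) held 1 match each. Among 32585 RefSeq starts, the 200 bases upstream held GAGGAA in 19.2%, TTNCNNAA in 30%, TGTGGT in 11.0% and TAACNG in 16.1%. The Prtn3 region held TGTGGT 3 times and TTNCNNAA 1 time, and TGTGGT occurs in 15.2% of 21165 TSS-proximal regions cut to the same length. The Ms4a3 downstream region held TTNCNNAA 4 times, GAGGAA 1 time and TGTGGT 1 time. The Ctsg downstream region held TAACNG 2 times, TGTGGT 1 time and TTNCNNAA 1 time. In 39282 distal regions these motifs occur in 38.1% (TTNCNNAA), 35.2% (GAGGAA), 30% (TGTGGT) and 22.9% (TAACNG). A match is a run of letters and not a measured binding site.

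Height was read as a percentile: the rank of a peak by its -log10 p within its own library's list, with 100 for the strongest peak and 0 where no peak was listed. The lists hold only peaks past a q-value of 0.01, so a 0 is not evidence of closed chromatin. They ranged from 29829 peaks (LSK+ WT replicate 2) to 91590 (LSK- XistΔ/Δ replicate 1). The background pileup, a measure of depth solved from the peaks, ranged from 0.482 to 3.87 fragments in the same libraries, and in all 4 pairs matched by cell type and number XistΔ/Δ was the deeper. Replicates 1 and 2 had 27 and 9 peaks in the 6 loci for LSK+ WT, 30 and 34 for LSK+ XistΔ/Δ, 36 and 25 for LSK- WT, 42 and 38 for LSK- XistΔ/Δ. Because longer lists reach weaker peaks, summit height was also read as the number of fragments at the summit divided by the library's median over the 21360 regions listed in all 8 libraries. This measure was chosen after the percentiles were seen.

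LSK+ XistΔ/Δ replicate 2 carried peaks of the loci that its partners lacked. Of the 10 regions listed in an LSK- library and in exactly 1 LSK+ library, 8 were in LSK+ XistΔ/Δ replicate 2 and 2 in LSK+ WT replicate 1. Over all 10931 regions of this kind LSK+ XistΔ/Δ replicate 2 held 32.8%, and LSK+ XistΔ/Δ replicate 1, the deepest LSK+ library, held 56.5%. At markers of maturing neutrophils the same library had no peak near Camp or Ngp, as in the other LSK+ libraries, and was at 61.1 near Mmp8 and 13.2 near Lcn2, against at most 21.5 and 0 in its partners. Near Ltf and Mmp9 it was at 60.7 and 68.3, against up to 73.8 and 84.6 in its partners. Its part in the results was not tested. Differences without it are given at the Ctsg and Ms4a3 promoters, and counts of calls without it for the loci. Most other differences include it.

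At the TSS-proximal peaks, Ctsg and Ms4a3 had no listed peak in LSK+ WT and were listed in all LSK- libraries, Mpo was higher in LSK- cells in all pairs, Ctsc was open everywhere, and Prtn3 was lower in LSK- on average. The mean percentile of the strongest promoter peak was higher in LSK- cells in 5 of the 7 genes. Of the 60447 regions listed in at least 4 libraries, 32620 were higher in LSK-, and these shares were not tested against each other. The 5 genes include Lyz2, where only 2 pairs were higher in LSK-, and Mpo, where ranking by fold turned the sign.

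**Figure D1:**
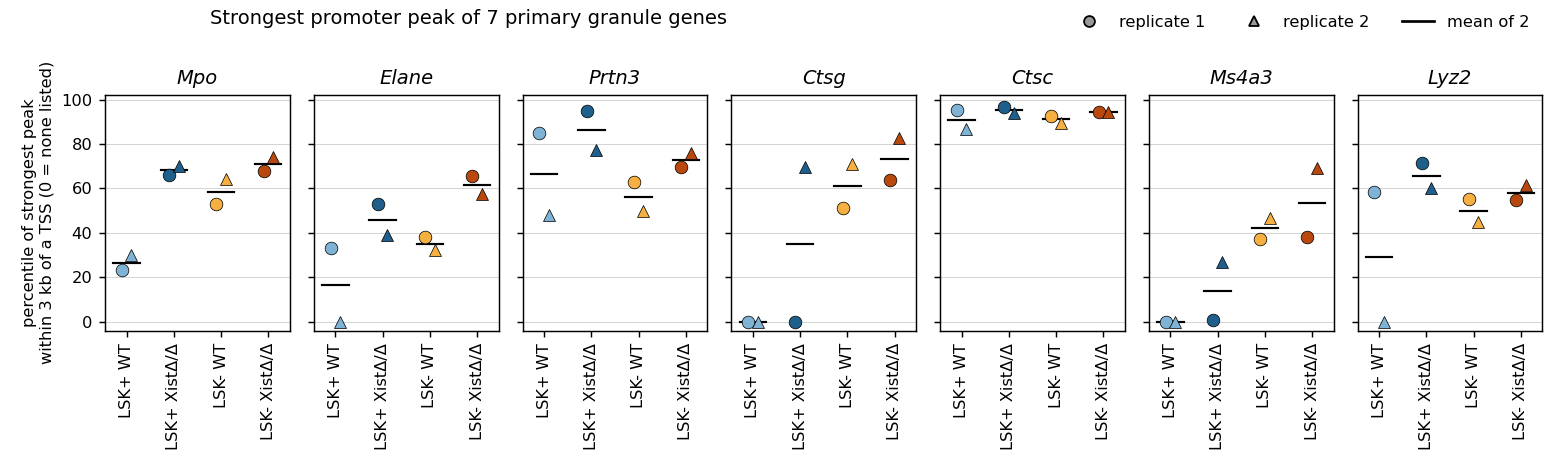
Percentile of the strongest peak within 3 kb of a TSS (y axis, 0 to 100, with 0 for no listed peak) for each of the 7 genes in the 4 groups (x axis). Points are single libraries (circles replicate 1, triangles replicate 2) and bars are means of 2. At Ctsg only LSK+ XistΔ/Δ replicate 2 of the LSK+ libraries is above 0, and at Ctsc all 8 points lie between 86.6 and 96.8.

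The Mpo promoter region (chr11:87793280-87794178, summit at the TSS) had a peak in all 8 libraries. Its percentile was 23.3 and 29.8 (LSK+ WT), 65.9 and 70.3 (LSK+ XistΔ/Δ), 52.8 and 64.2 (LSK- WT), and 67.9 and 74.1 (LSK- XistΔ/Δ). The mean was 26.6 ± 4.57 (SD, n = 2) in LSK+ WT and 58.5 ± 8.01 (SD, n = 2) in LSK- WT. LSK+ WT thus stood apart from the other 3 groups, and the LSK+ XistΔ/Δ and LSK- libraries overlapped. The mean of LSK- exceeded that of LSK+ by 17.4 points, in 4 of 4 pairs (exact permutation p = 0.111, two-sided, labels exchanged within genotype, where 36 assignments allow no p below 0.0556). In summit height the values were 0.328 and 0.423 (LSK+ WT), 0.596 and 0.805 (LSK+ XistΔ/Δ), 0.8 and 1.21 (LSK- WT), and 0.729 and 1.06 (LSK- XistΔ/Δ). Height was again greater in LSK- in 4 of 4 pairs, with means of 0.950 and 0.538 (exact permutation p = 0.111). When peaks were ranked by fold over local background instead, the difference turned to -2.39 points, and at equal list length, the top 29829 peaks of each list, it was 7.33 points (exact permutation p = 0.722). The local background around this promoter was 4.33 to 6.41 times the library's own level in LSK- and 1.44 to 6.47 times in LSK+ libraries, and fold is taken over it.

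At Ctsg, the gene of cathepsin G, most LSK+ libraries had no listed promoter peak. Its promoter region (chr14:56102156-56102896) had no peak in either LSK+ WT library or in LSK+ XistΔ/Δ replicate 1, and stood at percentile 69.8 in LSK+ XistΔ/Δ replicate 2. It stood at 51.0 and 71.2 in LSK- WT and at 63.8 and 82.5 in LSK- XistΔ/Δ. All 4 LSK- libraries and 1 of 4 LSK+ libraries therefore had the peak. The difference was 49.6 points, higher in LSK- in 4 of 4 pairs. Without LSK+ XistΔ/Δ replicate 2 it was 67.1 points, and without LSK+ XistΔ/Δ replicate 1 it was 32.2 points. The exact permutation p was 0.111 with all 8 libraries. In summit height the LSK- libraries had 0.667, 1.16, 0.590 and 1.25, and the LSK+ library that had the peak had 0.683. Among the top 29829 peaks of each list the promoter appeared in replicate 2 alone, at 36.1 (LSK+ XistΔ/Δ), 63.7 (LSK- WT) and 63.3 (LSK- XistΔ/Δ), and at 0 in the other 5 libraries.

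Elane and Prtn3, which lie head to tail, showed hardly any listed peak at the start sites used here. At the Elane TSS (chr10:79886176-79886396) a peak was listed only in replicate 2 of LSK- WT and of LSK- XistΔ/Δ, at percentiles 14.0 and 57.3. At the Prtn3 TSS used, at 79879614, only LSK- XistΔ/Δ replicate 2 had one, at 8.31. The annotated Prtn3 gene begins further upstream, at 79874476. The region there (chr10:79874312-79874729), taken as the promoter of Plppr3, was listed in 4 libraries, at up to 60.3 (LSK+ XistΔ/Δ replicate 2). The stronger peaks lay upstream of each start used. The region 2.36 kb upstream of Elane was at 32.9 and 0 (LSK+ WT), 52.9 and 38.9 (LSK+ XistΔ/Δ), 38.1 and 32.2 (LSK- WT), and 65.5 and 57.2 (LSK- XistΔ/Δ), with overlap between the cell types. The difference was 17.1 points, and 8.82 points without LSK+ WT replicate 2. Its summit height was greater in LSK- in 4 of 4 pairs, with means of 0.694 and 0.371 (exact permutation p = 0.0556, the smallest possible). The strongest peak of this region did not lie at the same place in all libraries. Its summit was at 79884604 in LSK- WT replicate 2 and at 79884663 in LSK- XistΔ/Δ replicate 2. In the other libraries that listed it the summit was at 79883877 to 79883893. The replicate 2 pairs therefore set different peaks, or a peak against none, side by side.

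The region 1.54 kb upstream of the Prtn3 TSS (chr10:79877236-79878466), in an intron of the annotated gene, was the strongest of the locus that belonged to a member gene, and it was listed in all 8 libraries. Its percentile was 84.9 and 48.0 (LSK+ WT), 94.9 and 77.4 (LSK+ XistΔ/Δ), 63.0 and 49.6 (LSK- WT), and 69.5 and 76.0 (LSK- XistΔ/Δ). The cell types overlapped, and the difference was -11.7 points (exact permutation p = 0.333). It was -21.0 points when LSK+ WT replicate 2 was left out and -2.51 when LSK+ WT replicate 1 was. Its summit height was 1.48, 0.962, 1.95 and 1.22 in the LSK+ libraries in the same order, and 0.933, 0.921, 0.861 and 1.17 in the LSK- libraries. Height was lower in LSK- cells in 4 of 4 pairs, with means of 0.971 and 1.40 (exact permutation p = 0.0556). With every list limited to its top 29829 peaks the difference was -37.4 points, again in 4 of 4 pairs (exact permutation p = 0.0556). By pair, the drop was large in replicate 1 (-67.8 points) and small in replicate 2 (-6.90 points). In summit height the regions upstream of these neighbouring protease genes thus differed in opposite directions in both replicate 1 pairs. In the replicate 2 pairs the Elane heights did not come from the same peak, so the directions cannot be compared there.

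**Figure D2:**
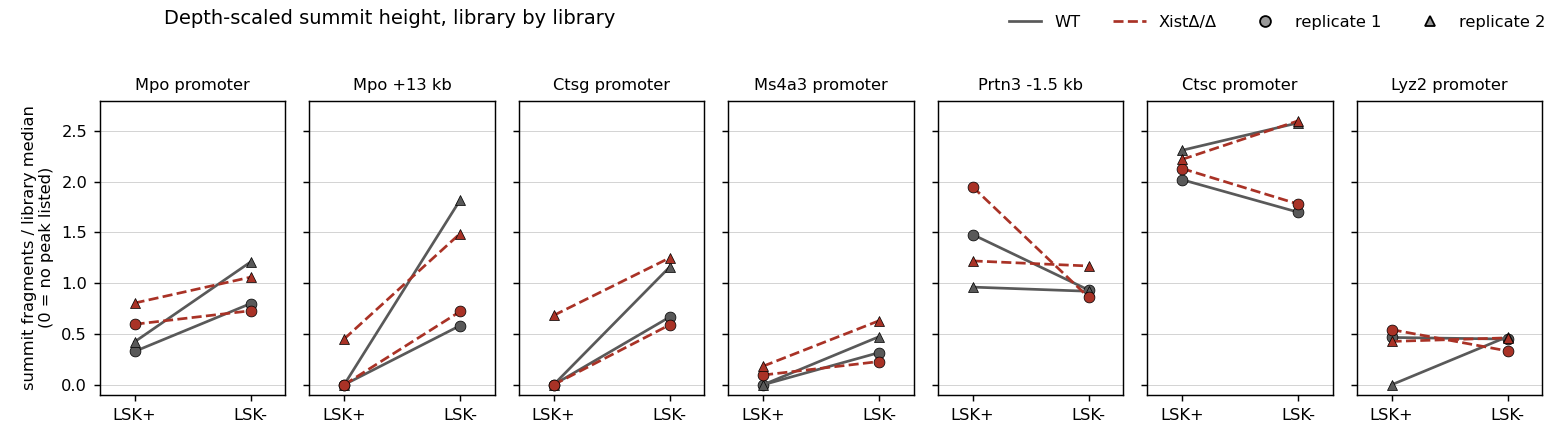
Fragments at the summit divided by the library's median over the 21360 regions listed in all 8 libraries (y axis, 0 where no peak was listed), in LSK+ and LSK- cells (x axis). Each line joins the 2 libraries of a genotype and replicate number (solid WT, dashed XistΔ/Δ). The Mpo, Ctsg and Ms4a3 promoters and the Mpo region at 13 kb rise in 4 of 4 pairs, and the Prtn3 upstream region falls in 4 of 4.

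In percentile, Ms4a3 was the only 1 of the 7 genes whose strongest promoter peak separated the cell types without overlap. In summit height the Elane upstream region had 0.617 to 0.754 in LSK- and at most 0.521 in LSK+. Its LSK- replicate 2 heights came from another summit, so this does not compare the same peak. The Ms4a3 region (chr19:11640689-11641086) had no peak in LSK+ WT and was at 0.875 and 26.7 in LSK+ XistΔ/Δ. It was at 37.3 and 46.7 in LSK- WT and at 37.9 and 69.2 in LSK- XistΔ/Δ. Every LSK- library was above every LSK+ library, by 40.9 points on average (exact permutation p = 0.0556), and by 47.3 points without LSK+ XistΔ/Δ replicate 2. Over all 60447 regions tested every LSK- library stood above every LSK+ library in 7.28% and the reverse held in 4.18%, and of the 32 tested regions of the 6 loci the first held for 1 (3.12%), the Ms4a3 promoter, and the second for 0. In summit height the LSK- libraries had 0.317, 0.474, 0.229 and 0.631, against at most 0.183 in LSK+. Among the top 29829 peaks only LSK- WT and LSK- XistΔ/Δ replicate 2 listed it, at 32.8 and 35.3, so in both genes the separation at equal list length rested on replicate 2.

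Ctsc and Lyz2 did not separate the cell types. The Ctsc promoter (chr7:88277022-88278538) was among the strongest peaks of every list, at 95.1 and 86.6 (LSK+ WT), 96.8 and 94.1 (LSK+ XistΔ/Δ), 92.6 and 89.4 (LSK- WT), and 94.4 and 94.6 (LSK- XistΔ/Δ). Its mean summit height was 2.17 in both cell types. The activating protease was thus open at its promoter in cells in which the Ctsg promoter had no listed peak. The Lyz2 promoter (chr10:117281887-117282510) was at 58.3 and 0 (LSK+ WT), 71.3 and 60 (LSK+ XistΔ/Δ), 55.0 and 45.0 (LSK- WT), and 54.6 and 61.6 (LSK- XistΔ/Δ). Apart from LSK+ WT replicate 2, the shallowest library, the values overlapped, and the difference was 6.68 points (exact permutation p = 0.944) and -7.90 points without that library. Lyz1, a near copy of Lyz2, lies next to it, and the filter on mapping quality removes reads that fit both copies, so the Lyz2 values are uncertain.

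To ask which regions of the loci differed between cell types, all 60447 regions with a peak in at least 4 of 8 libraries were tested together with limma on the percentile. Of the 52 regions, 32 entered: 8 promoters of the 7 genes, 9 of neighbours and 15 distal. A region that entered because 1 cell type carried it had to differ. Counts over the 32, and the limma p-values of such regions, therefore describe them only. Without a replicate term, 0 of 60447 regions passed an adjusted p of 0.05, and 0 of the 32. At an unadjusted p under 0.05, 10.6% of all regions were higher in LSK- and 6.93% in LSK+, and of the 32 these were 5 (15.6%) and 1 (3.12%). The names of same-numbered libraries share a code, and with the replicate number as a term 10.3% of all regions were higher in LSK- and 7.21% in LSK+ (limma, adjusted p under 0.05). Of the 32 regions, 5 (15.6%) were higher in LSK- and 3 (9.38%) in LSK+. Both shares lay near those of all regions, and their difference was not tested. In bulk cells, fewer cells of a type and less accessibility per cell cannot be told apart.

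The 5 regions higher in LSK- included the Ms4a3 promoter (40.9 ± 9.45 points, SE, limma adjusted p = 0.00800 with the replicate term and 0.128 without) and the Ctsg promoter (49.6 ± 13.2 points, 0.0173 and 0.189). The third was a region 13 kb downstream of the Mpo TSS, in an exon of Lpo, the lactoperoxidase gene next to Mpo (chr11:87806079-87807310). It was at 0 and 0 (LSK+ WT), 0 and 29.5 (LSK+ XistΔ/Δ), 16.8 and 70.2 (LSK- WT), and 54.9 and 77.2 (LSK- XistΔ/Δ). LSK- was higher in 4 of 4 pairs, by 47.4 ± 10.7 points (SE, limma adjusted p = 0.00704 with the replicate term and 0.146 without). In summit height its LSK- mean was 1.15, above the 0.950 of the Mpo promoter itself, and its LSK+ mean was 0.113. Ranked by fold the difference was 16.2 points here and 17.7 points at the Plppr3 region described next. This region, the Ctsg promoter and the Plppr3 region were each listed in 4 LSK- libraries and 1 LSK+ library. The Ms4a3 promoter was listed in 4 and 2. All of them met the filter of 4 libraries through LSK- alone, so their p-values are a description.

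The other 2 were weaker. A region 9.02 kb downstream of the Ctsg TSS, towards the mast cell protease gene Mcpt8 (chr14:56093315-56093868), was at 0, 0, 0 and 8.26 in the LSK+ libraries and at 34.3, 0, 36.1 and 41.5 in the LSK- libraries. The difference was 25.9 ± 8.30 points (SE, limma adjusted p = 0.0425 with the replicate term and 0.192 without). A region 13.4 kb upstream of Prtn3, in an intron of Plppr3 (chr10:79865852-79866399), was at 19, 0, 0 and 0 in LSK+ and at 48.3, 12.7, 53.1 and 38.1 in LSK-, a difference of 33.3 ± 8.59 points (SE, limma adjusted p = 0.0146 with the replicate term and 0.166 without). It is nearest to Gm17134 and is no promoter of a granule gene.

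The other 3 regions were higher in LSK+ with the replicate term, all 20.4 kb or more from the TSS of the granule gene. The region 27.5 kb downstream of the Ms4a3 TSS (chr19:11613101-11613665), whose sequence is given above, was at 61.1 and 0 (LSK+ WT), 81.6 and 55.7 (LSK+ XistΔ/Δ), 13 and 0 (LSK- WT), and 33.8 and 0 (LSK- XistΔ/Δ) (-37.9 ± 10.5 points, SE, limma adjusted p = 0.0213, and 0.277 without the replicate term). It thus ran opposite to the Ms4a3 promoter, and the 2 regions lie in the same window. The region 43.0 kb downstream of the Ctsc TSS (chr7:88320752-88321376) was at 60.6, 0, 69.3 and 35.6 in LSK+ and at 0, 0, 28.4 and 0 in LSK- (-34.3 ± 10.0 points, SE, limma adjusted p = 0.0278, and 0.289 without the term). The region 20.4 kb downstream of the Ctsg TSS, in an exon of Mcpt8 (chr14:56082015-56082454), was at 55.1, 0, 55.7 and 7.74 in LSK+ and at 1.87, 0, 0 and 0 in LSK- (-29.2 ± 9.60 points, SE, limma adjusted p = 0.0475, and 0.309 without the term). In each of the 3, LSK+ WT replicate 2 had no peak, and no LSK- library was above its LSK+ partner. Without LSK+ WT replicate 1 the differences were -22.6, -19.1 and -15.4 points in the order given, and without LSK+ XistΔ/Δ replicate 1 the last was -17.2. In summit height the LSK+ means were 0.521, 0.339 and 0.217 in the same order, and the LSK- means 0.184, 0.0486 and 0.0375. The exact permutation p was 0.222, 0.167 and 0.278.

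These calls depended on single libraries. With the replicate term, leaving out 1 library at a time left 0 to 8 calls among the 32 regions and 3216 to 11384 among all. The 0 came without LSK+ XistΔ/Δ replicate 1, and without LSK- WT replicate 1 only the Mpo region at 13 kb remained. That region was called in 7 of the 8 fits, the Ms4a3 promoter and the Plppr3 region in 6 each and the Ctsg promoter in 4. The Ctsg region at 20.4 kb was called in 4, and the remaining 3 regions in 2 each.

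**Figure D3:**
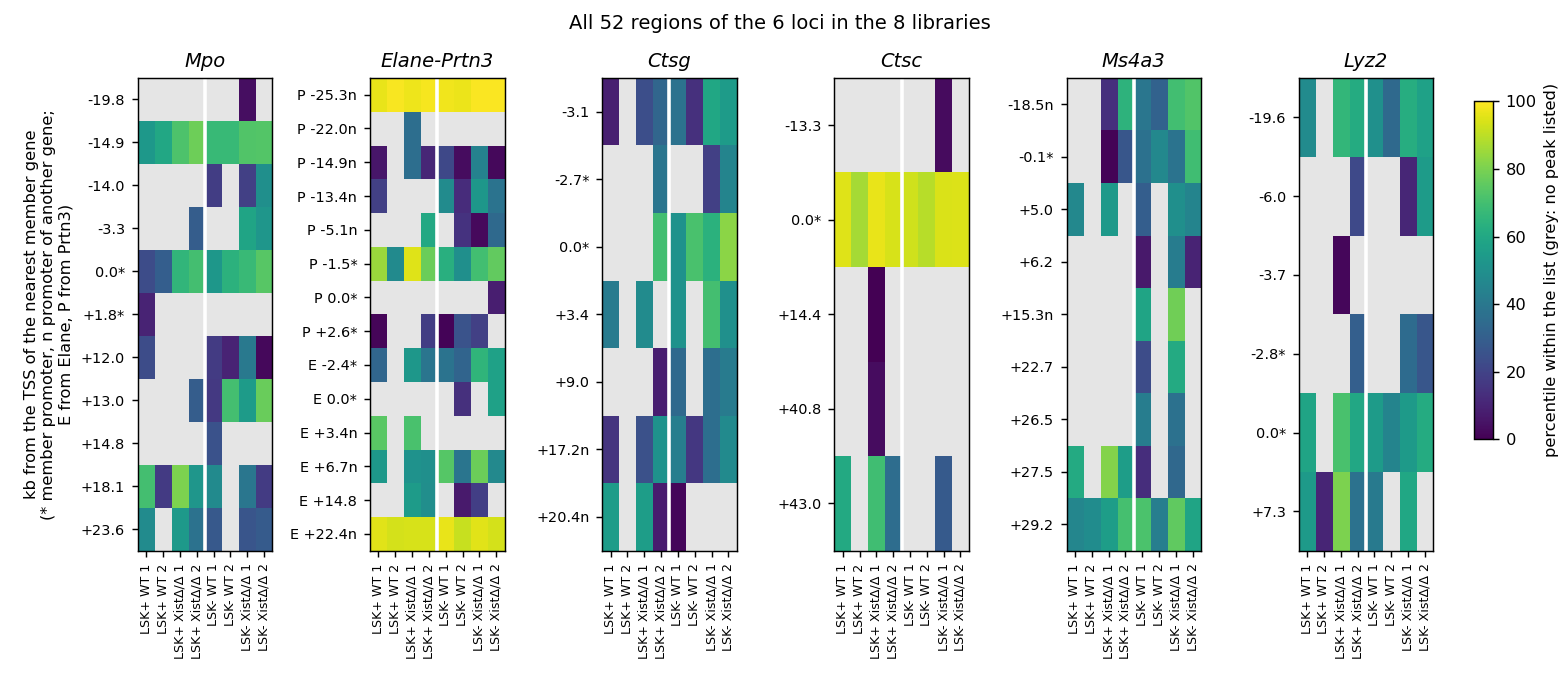
Percentile within the list (colour, 0 to 100, grey where no peak was listed) of all 52 regions (rows, by kb from the nearest member TSS) in the 8 libraries (columns, LSK+ left and LSK- right of the white line) for the 6 loci. LSK+ WT replicate 2 has the fewest filled cells (9), and LSK+ XistΔ/Δ replicate 2 fills several rows that the other LSK+ libraries leave grey, including the Ctsg promoter.

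The distal regions were mostly of moderate rank and differed in which cells carried them. The strongest near Mpo lay 14.9 kb upstream, in an intron of Tspoap1 (chr11:87778435-87778995), at 53.2 to 78.1 in LSK+ and 67.4 to 73.3 in LSK- libraries. It was listed in all 8. On the other side of Mpo, the regions at 18.1 and 23.6 kb, in introns of Lpo, averaged 54.9 and 35 over the LSK+ libraries, against 26.1 and 20.8 over LSK-, and neither passed the test (limma adjusted p = 0.103 and 0.368 with the replicate term). At Ctsg, the region 3.09 kb upstream was at 8.88 and 0 (LSK+ WT), 24.1 and 32.8 (LSK+ XistΔ/Δ), 37.9 and 13.9 (LSK- WT), and 59.4 and 54.9 (LSK- XistΔ/Δ), higher in LSK- in 4 of 4 pairs but not past the test (limma adjusted p = 0.0869). The region 3.43 kb into the other side of the gene was listed in 2 LSK+ and 3 LSK- libraries, at up to 70.1.

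Around Ms4a3, 6 distal regions lay in its introns or downstream, towards and beyond Ms4a2, which encodes the beta chain of the IgE receptor. The region at 29.2 kb was listed in all 8 libraries, at 42.8 to 75.6. The region at 5.03 kb, in an intron of Ms4a3, was at 46.8, 0, 53.5 and 0 in LSK+ and at 29.8, 0, 49.7 and 45.0 in LSK-. The region at 22.7 kb, in an intron of Ms4a2, appeared only in replicate 1 of LSK- WT and LSK- XistΔ/Δ, at 23.0 and 61.1, as did a peak at the Ms4a2 promoter, at 58.5 and 78.3. On the upstream side, a region in an intron of Oosp2 at 18.5 kb was at 0, 0, 13.8 and 64.7 in LSK+ and at 39.4, 31.3, 69.7 and 73 in LSK-, higher in LSK- in 4 of 4 pairs (limma adjusted p = 0.0667 with the replicate term). At Lyz2, the regions 19.6 kb upstream and 7.33 kb downstream were listed in 7 and 6 libraries, and their LSK+ means were 43.9 and 45.7 and their LSK- means 50.9 and 25. The Lyz1 exon region 6.04 kb upstream was listed in 3 libraries. The 3 other distal regions of Ctsc were each in 1 library, at 3.35 or below. The only distal region of the Elane-Prtn3 locus, in an intron of Med16, was at 0, 0, 54.9 and 49.6 in LSK+ and at 0, 7.1, 18.5 and 0 in LSK-. By contrast the promoters of the housekeeping neighbours Ptbp1 and Med16 stayed at 91.7 or above in all 8 libraries.

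**Figure D4:**
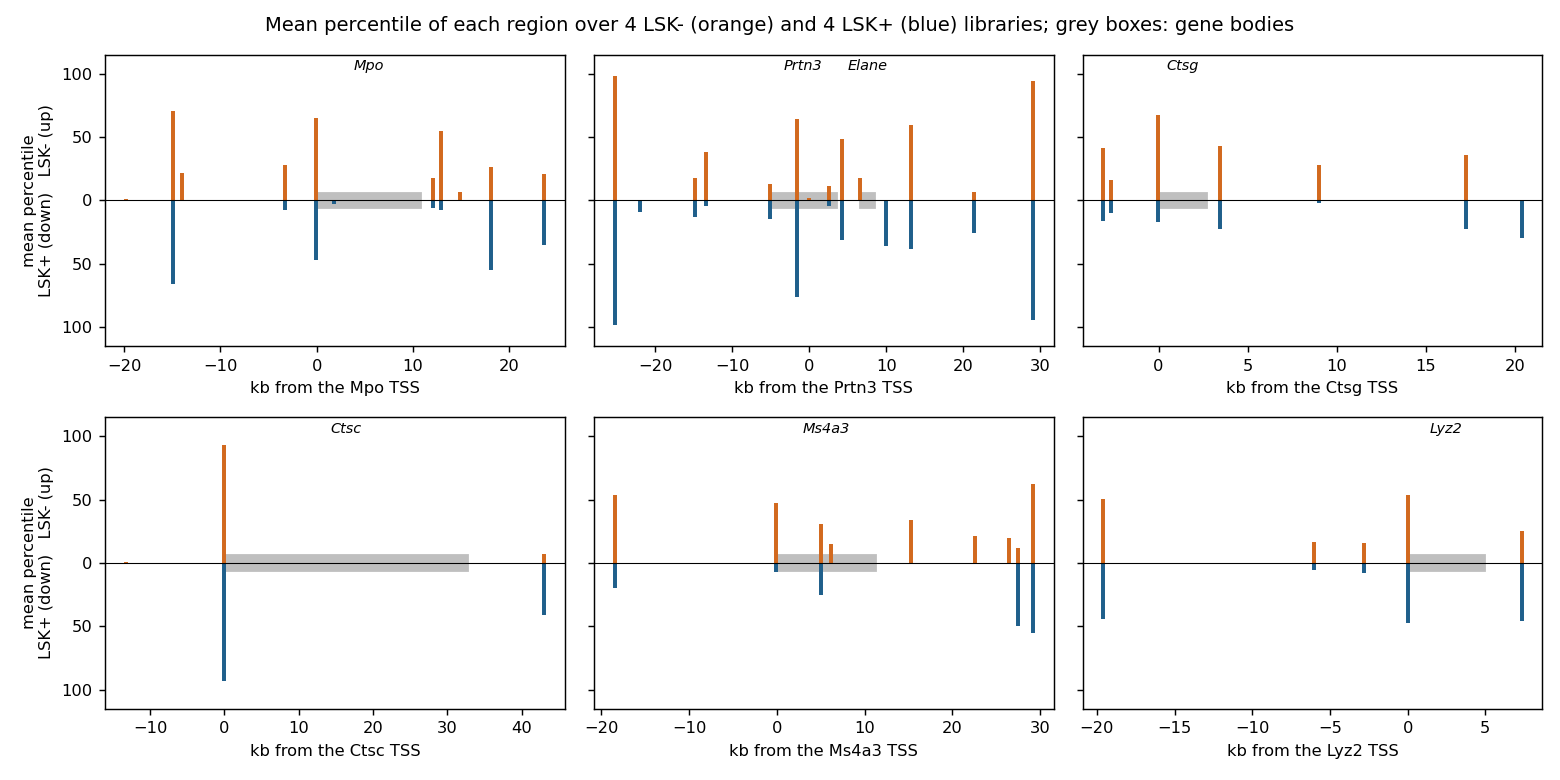
Mean percentile of each of the 52 regions over the 4 LSK- libraries (upward lines) and the 4 LSK+ libraries (downward lines) against distance from the TSS in kb, with gene bodies in grey. The Ctsg and Ms4a3 promoters and the Mpo region at 13 kb are long upwards and short downwards, and the Ms4a3 region at 27.5 kb is the reverse.

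Counted by presence alone, 10 of the 52 regions (19.2%) were listed in LSK- libraries only, against 26.5% of all 123260 regions, and 6 (11.5%) in LSK+ only, against 18.2%. All 8 libraries listed 7 (13.5%), against 17.3%, and 9 (17.3%) were in 1 library, against 25.3%. XistΔ/Δ libraries alone listed 11 (21.2%), against 29.2%, and WT libraries alone 2 (3.85%), against 3.44%. Regions listed in at least 4 libraries made up 61.5% of the 52 and 49.0% of all. These shares were not tested against each other.

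The effect of Xist deletion on the 7 genes was compared next. The strongest promoter peak had a higher mean percentile in XistΔ/Δ than in WT in all 7 genes. The mean difference was 27.0 points at Mpo, 27.9 at Elane, 23.5 at Ctsg, 22.3 at Lyz2, 18.1 at Prtn3, 12.7 at Ms4a3 and 4.06 at Ctsc. At Ctsg it was 6.02 without LSK+ XistΔ/Δ replicate 2 and 40.9 without replicate 1 of that group, and at Lyz2 it was 7.68 without LSK+ WT replicate 2 and 36.9 without LSK+ WT replicate 1. Leaving out 1 library gave 4.85 to 20.5 at Ms4a3, the ends without replicate 2 and replicate 1 of LSK- XistΔ/Δ, and without LSK+ WT replicates 1 and 2 the difference was 27.3 and 8.90 at Prtn3 and 6.18 and 1.93 at Ctsc. XistΔ/Δ was higher in 4 of 4 pairs in 5 genes and in 3 of 4 at Ctsg and Lyz2, and the exact permutation p was 0.0556 at Mpo and Elane and 0.111 to 0.333 at the others. At the Mpo promoter the XistΔ/Δ libraries (65.9 to 74.1) did not overlap the WT libraries (23.3 to 64.2). Such a gap was found at 4 of the 32 tested regions (12.5%) and at 6.58% of all, and the reverse gap at 0 and at 0.00496%. The 4 were the Mpo promoter, the Mpo region 14.9 kb upstream, the Elane upstream region and the Lyz2 region 19.6 kb upstream.

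The shift was not particular to these genes. The median difference between genotypes was 12.7 points over all 60447 regions, 17.9 over the 32 of the loci and 20.2 over the 8 promoter regions of the 7 genes, and XistΔ/Δ was higher at 57604 of all regions. With the replicate term, 0.437% of all regions were higher in XistΔ/Δ, 0.00331% were higher in WT, and 0 of the 32 were either (limma, lowest adjusted p of the 32 was 0.0911). Without it 0 were called in either set, and at an unadjusted p under 0.05, 8.38% of all regions and 2 of the 32 (6.25%) were higher in XistΔ/Δ, and 0.00496% and 0 were higher in WT. Without LSK+ WT replicate 1, which leaves the shallowest library alone in its group, the fit with the replicate term called 12674 regions of all and 5 of the 32.

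List length moved with genotype. Cutting every list to the same length gives all lists the same ranks, which holds the median over all regions near 0. Whether list length caused the shift was therefore not tested by this cut. Over the top 29829 peaks per list, the median of all regions was -0.0142 points between genotypes and -0.0595 between cell types. The genotype median was 1.26 over the 11 regions of the loci still tested. The Mpo promoter then differed by 1.35 points (exact permutation p = 0.944), with 0 and 29.8 (LSK+ WT), 5.83 and 37.1 (LSK+ XistΔ/Δ), 0 and 54.9 (LSK- WT), and 1.54 and 45.6 (LSK- XistΔ/Δ). At this length replicate 2 libraries stood above replicate 1 libraries in each group. In summit height the Mpo promoter was higher in XistΔ/Δ in 2 of 4 pairs, both in LSK+ cells (0.596 against 0.328 and 0.805 against 0.423), and lower in both LSK- pairs. The Ctsg promoter was higher in 2 of 4 pairs, Lyz2 in 2, Ms4a3 and Ctsc in 3 each, the Prtn3 upstream region in 3 and the Elane upstream region in 4 (exact permutation p from 0.111 to 0.778 over the 7). Depth and genotype cannot be told apart in these lists. A difference of the genotype effect between LSK- and LSK+ cells was not called at any of the 32 regions or of all regions (limma, with or without the replicate term). Without the term, at an unadjusted p under 0.05, the effect was more positive in LSK- at 0.117% of all and 0 of the 32, and in LSK+ at 0.278% and 1, the Med16 intron region.

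**Figure D5:**
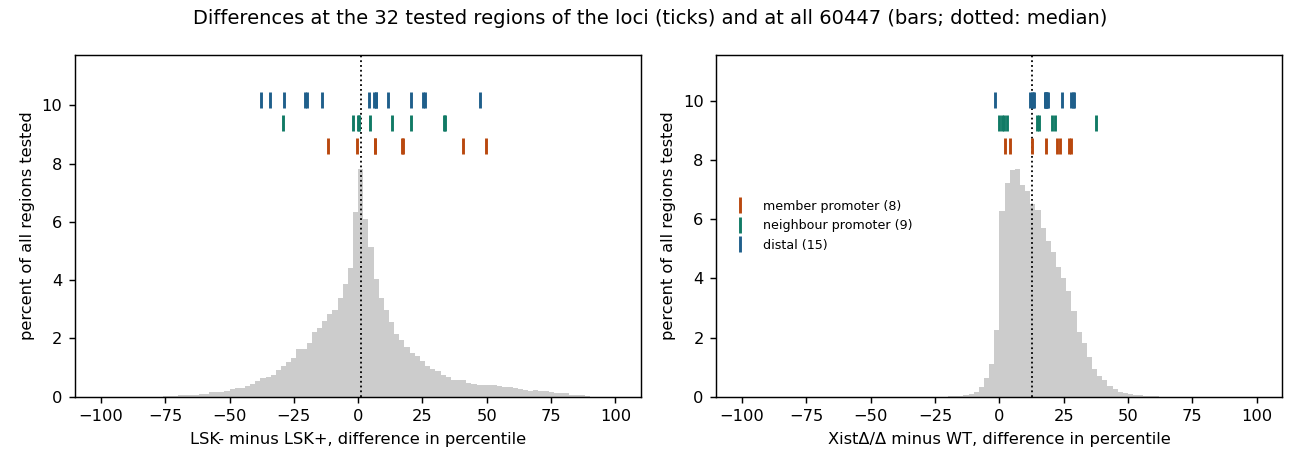
Differences in percentile (x axis, points) at the 32 tested regions of the 6 loci (ticks, by class) and, as bars, the percent of all 60447 tested regions in bins of 2 points, for LSK- minus LSK+ (left) and XistΔ/Δ minus WT (right). The dotted lines are the medians of all regions, 0.946 on the left and 12.7 on the right, and the ticks spread over both sides on the left but lie almost wholly above 0 on the right.

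Other genes of the same granules and of later stages were read the same way, by the strongest region near each TSS. Of 12 further primary granule and promyelocyte genes, all 12 were tested and 0 were called in either direction between cell types, with a median difference of 3.08 points, against 1.26 over all TSS-proximal regions. Of 12 genes of later granules, 6 were tested, and with the replicate term 2 were called higher in LSK- and 3 in LSK+, against 6.53% and 4.08% of all TSS-proximal regions, and none without the term. The region of Camp, the cathelicidin precursor, was at 0 in all LSK+ libraries and at 19.9, 47.0, 55.9 and 78.8 in LSK-. It entered the test through LSK- alone and so had to differ, and its call is a description. Mmp8, neutrophil collagenase, was higher in LSK- by 50.5 points (limma adjusted p = 0.0120 with the replicate term). Regions near Mmp9, gelatinase B (-64.9 points, 0.00169), and Ltf, lactoferrin (-48.0 points, 0.00690), and near 1 further gene were higher in LSK+ cells (limma adjusted p with the replicate term). Mmp8 was listed in all LSK- libraries, and Mmp9, Ltf and the further gene in all LSK+ libraries. Each met the filter of 4 libraries through that cell type alone, so these p-values too are a description. A TSS-proximal region within 3 kb need not serve the gene it is named for, and 2 of the 12 had no peak in any library. Taken from the same list, 6 markers of maturing neutrophils (4 tested, 2 higher and 2 lower in LSK-) had a median percentile of 0 to 37.0 in LSK+ and 3.62 to 24.0 in LSK- libraries.

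Markers of the sorted cells were read beside these results, with limma and the replicate term. Of 8 LSK- markers, all tested, 2 were called higher in LSK- and 1 lower. Epor was higher by 25.6 points (limma adjusted p = 0.0156), and Csf1r was lower (-11.3 points, 0.0380). Gata1 was at 0 in all LSK+ libraries and at 28.7 to 72.7 in LSK-, so that it too entered through LSK- alone. Klf1, a further erythroid gene, differed by -4.13 points and was not called. The 8 stem cell markers had a median percentile of 55.9 to 77.2 in LSK+ and 32.5 to 64.4 in LSK- libraries. Among them, Ly6a, which encodes Sca-1 itself, had a promoter peak in only 2 libraries. Of 5 T cell markers, Cd3e, Cd3g, Cd4 and Cd8a had no peak in any library while Lck was at 56.6 to 90.1 throughout. Of 5 B cell markers, 3 were tested and none was called. Ebf1 was at 38.9 to 84.1, while Cd79a had no peak in any library, Pax5 was at 0 in 5 and Cd79b at 0 in 4. Of the called erythroid genes, Epor was higher in LSK-, and the call of Gata1 is a description. The called genes of later granules stood on both sides, and each had met the filter through 1 cell type alone. The part of cell composition in the differences was not tested.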

How the data were processed

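ATAC-seq peak lists of 8 libraries were used. The authors trimmed reads with Trim Galore, aligned them to mm10 with Bowtie2 2.3.5.1, removed mitochondrial reads and reads of mapping quality under 30 with SAMtools 1.10, and called peaks in each library with MACS2 2.2.7.1 (q 0.01, paired-end fragments). No control, duplicate removal or Tn5 shift is given in the sources used here. As deposited, each peak has a score (10 times the -log10 q-value, as a whole number), a fold enrichment of the summit over local background, the -log10 p-value and -log10 q-value of the summit from MACS2, and the offset of the summit. No read counts were used, so depth was solved from the fold and p of the peaks, and no interval was set on single values.

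Peaks overlapping by at least 1 base were merged into regions on chromosomes 1 to 19 and X, and each library's strongest peak by -log10 p gave the percentile. Regions and genes were placed on the GENCODE annotation of GRCm38. Regions with peaks in at least 4 libraries were fitted with limma 3.58.1 (R 4.3.3, eBayes with trend), with 4 group means and contrasts for cell type, genotype and their interaction, Benjamini-Hochberg adjusted over all regions. Single promoters were tested by exact permutation within strata, with every assignment enumerated in Python. Depth was solved with scipy 1.17.1. Values per library are given for the strongest TSS-proximal region of each gene by mean percentile, for regions called in a contrast (at most 6 a locus) and for at most 3 further distal regions a locus by mean percentile, and called genes of the lists are named, at most 4 a list by size of difference. Other regions and marker genes were named after their values were seen. A stem cell marker is not reported here. Alternatives were other minimum numbers of libraries, ranking by fold, equal list length, a stricter q, a cover of the region, a 1 kb promoter window and leaving out each library. Python 3.11.15, numpy 2.4.6, pandas 2.3.3, pysam 0.24.0 and matplotlib 3.10.9 were used.

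The file names carry a code shared by libraries of the same number, which was taken to mark a batch. What the code stands for is not given in the sources used here. Deviations of same-numbered libraries from their group means correlated at 0.161 to 0.464 in all 6 pairs of groups, above 0.1, and the fit with the replicate number as a term is printed beside the other. Replicate 1 was deeper than replicate 2 in every group. Background pileup was 1.16 and 0.482 (LSK+ WT), 1.82 and 0.962 (LSK+ XistΔ/Δ), 1.47 and 0.992 (LSK- WT), and 3.87 and 1.19 (LSK- XistΔ/Δ). Batch and depth cannot be told apart in the replicate number. Simulated data for LSK- against LSK+ were given a shift between replicate numbers estimated from these libraries. The fit with the term was therefore bound to recover more, and the simulation does not test whether the term is needed. With 12000 of 60447 regions changed by 40 points, 0% were recovered without the term and 67.3% with it. By 60 points these were 64.3% and 92.9%. With 200 regions changed, none was recovered by either fit at 20, 40 or 60 points. The genes, lists and tests were chosen with earlier results of these data known. Leave-one-out fits with the replicate term and the summit heights were added after the data were seen.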

Additional observations from a re-analysis of the deposited data

How the results depend on the processing

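Without the replicate term no region of the loci was called in any contrast, under any of the alternatives run. The replicate term (replicate block) called 8 of the 32 regions between LSK- and LSK+ and 10606 of all, and 266 of all between genotypes, and it changed no other call. With this term and 1 library left out, added after the data were seen, the 32 regions gave 4 (LSK+ WT replicate 1), 6 (LSK+ WT 2), 0 (LSK+ XistΔ/Δ 1), 6 (LSK+ XistΔ/Δ 2), 1 (LSK- WT 1), 8 (LSK- WT 2), 4 (LSK- XistΔ/Δ 1) and 5 (LSK- XistΔ/Δ 2) calls between cell types. All regions gave 9689, 11384, 3216, 8074, 4329, 8762, 6798 and 9510 in the same order. Between genotypes, leaving out LSK+ WT replicate 1 gave 5 of the 32 and 12674 of all, which leaves the shallowest library alone in its group, LSK+ WT 2 gave 1 of all, LSK- XistΔ/Δ 1 gave 239 and LSK- XistΔ/Δ 2 gave 349. Without the term, leaving out 1 library gave 0 to 2001 calls over all regions between cell types, the highest without LSK- WT replicate 2, and the top 29829 peaks of each list gave 4047, with 0 in the loci. The interaction was called nowhere in the settings run.

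The sign of LSK- minus LSK+ turned at Mpo (-2.39 points) and Ctsc (6.13) when peaks were ranked by fold, and at Lyz2 (-20.0 points) when a peak had to cover 50% of its region. Leaving out 1 library gave -2.47 to 1.77 points at Ctsc and -7.90 to 21.3 at Lyz2, the lowest of Lyz2 without LSK+ WT replicate 2. These causes were not tested. Of the other values compared for single regions or promoters, 244 kept their direction and side of the threshold. No region passed the threshold in the main fit, and the exact permutation test could not reach it, so the side was nearly fixed in advance. Size was not part of this count. It includes the genotype difference at the Mpo promoter, which went from 27.0 to 1.35 points at equal list length. No list gives a depth in reads, and a peak below the q-value of 0.01 is not seen.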
